A study of Homo sapiens with 12 samples.

Results

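The response of A549 cells to tipifarnib was described from 4 RNA-seq libraries, out of 12 in the series. A549 is an established line from a human lung cancer, known to carry a KEAP1 mutation. The members are the 4 libraries labelled A549, and the drug is compared with its DMSO solvent across all genes. Control cells were transduced with the empty pCDH-CMV lentiviral vector and carry the genotype label WT. MYC cells were transduced with pCDH-puro-cMyc, which expresses full-length human c-Myc, and were selected with puromycin as a stable line. Cells of each kind received 10 µM tipifarnib or DMSO, and RNA was taken at 48 h, giving 1 library for each vector and treatment and 2 pairs of tipifarnib and DMSO libraries. The other 8 libraries hold the same design at 20 µM, 4 from SKOV3 (ovarian cancer) and 4 from MDA-MB-231 (breast cancer). Each vector is a single stable line, and the labels show no repeat culture, so the p-values reflect no more than the spread among these libraries.

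Tipifarnib inhibits farnesyltransferase, the enzyme that attaches a farnesyl lipid to the carboxy-terminal cysteine of proteins such as HRAS, the nuclear lamins and the centromere proteins CENPE and CENPF. Without that lipid these proteins are not anchored to membranes in the usual way, although some can receive a geranylgeranyl lipid instead. Cells that stop dividing lower the genes of DNA replication, which E2F factors drive, and those of mitosis, which the MuvB-based complexes drive. The p53 protein raises CDKN1A, an inhibitor of cyclin-dependent kinases, and MDM2, the ligase that degrades p53 itself.

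Gene counts per A549 library ranged from 21881407 to 26008267. Mitochondrial genes took from 4.17% to 5.50% of them. MYC stood at 105 CPM (counts scaled to library size) in control cells in DMSO and at 143 in tipifarnib, against 912 and 506 in MYC cells. Of 13 markers typical of A549, ALDH1A1 lay between 7892 and 9382 CPM and AKR1B10 between 1406 and 2934, while SERPINA1 was at 1.14 to 2.51 and UGT1A6 stayed under 1 CPM in every library. The epithelial keratin KRT8 lay between 2708 and 5208 CPM. Of 10 markers of the alveolar type II cell, 7 stayed under 1 CPM in every library and SFTPA1 was at 0 in all of them. ABCA3 of that list went the other way, at 61.7 and 33.8 CPM in DMSO and at 122 and 119 in tipifarnib. Of 8 immune markers, 7 stayed under 1 CPM in every library, and the list's summed level was 9.08 and 4.17 CPM in DMSO against 4.45 and 1.56 in tipifarnib.

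The library of MYC cells in DMSO stood apart. It had the largest share of reads aligned to several places, 6.46%. The other A549 libraries had 4.74% to 4.92%, and those of the other lines at most 5.69%. HSPA8, a constitutive HSP70 chaperone, was at 455 CPM in the MYC DMSO library, against 1518, 1961 and 2442 CPM in the other A549 libraries. TRIB3, a pseudokinase induced by stress, was at 570 CPM there, against 84.6, 261 and 238 CPM. Every response of MYC cells is measured against this library, and its own deviation and an effect of the vector cannot be told apart. Counts of list members from each vector's pair alone are therefore given with the lists.

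Of 17913 genes tested, 1350 changed with tipifarnib in A549, which is 7.54%. The 595 that rose were 3.32% of genes tested and the 755 that fell were 4.21%. Counts of list members given below stand beside these shares. A gene is said to rise or fall where its Benjamini-Hochberg adjusted p in edgeR's quasi-likelihood test was under 0.05 over both pairs. Fold changes are log2 values ± their fitted standard error, positive for higher levels in tipifarnib. Among the genes that passed, 280 rose and 104 fell by more than 2-fold. The median change of all genes was 0.00 in each pair. Of all genes tested, 31.4% were higher in both pairs and 32.1% were lower in both. The calls rest on pairing by vector and on a spread shared with the other lines: 0 genes passed without the vector term (1921 had an unadjusted p under 0.05) and 279 passed in the A549 libraries alone. Leaving out the control pair gave 654 genes, 443 up and 211 down, and leaving out the MYC pair gave 372.

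TNFRSF10D, a decoy receptor for the death ligand TRAIL, was among the largest rises. Its level went from 34.9 to 128 CPM in control cells and from 10.9 to 122 CPM in MYC cells, a rise of 2.64 ± 0.31 (adjusted p = 0.0043). The libraries in tipifarnib were both above those in DMSO, although the MYC cells started lower. CDKN1A rose by 2.12 ± 0.25 (adjusted p = 0.0043), from 64.3 to 278 CPM in control cells and from 75.7 to 331 in MYC cells. Its changes were alike in the pairs, 2.11 and 2.13.

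Other large rises were those of RHCG (2.85 ± 0.41), an ammonia transporter, PTPRN2 (2.56 ± 0.45), MARCHF4 (2.46 ± 0.27), XDH (2.43 ± 0.61), which makes uric acid, and CST1 (2.32 ± 0.55), a secreted cystatin. Most of them started from low levels, and in XDH and CST1 most of the rise was in MYC cells. XDH changed by 1.23 in the control pair and by 4.21 in the MYC pair, and CST1 by 0.95 and 3.46. In DESeq2 CST1 and MEG3 kept fold changes of 2.24 and 2.22 but did not pass (adjusted p = 0.51 and 0.79). The cytokine IL32 (2.28 ± 0.38), smooth muscle actin ACTA2 (2.25 ± 0.37), the actin-binding ABLIM3 (2.18 ± 0.35), the imprinted noncoding RNA MEG3 (2.15 ± 0.24) and ANO9 (2.10 ± 0.48) rose too. HSPA1B, an inducible HSP70 chaperone, rose by 2.19 ± 0.57 over both pairs, but by 0.68 in control cells and 3.83 in MYC cells. Its reads cannot be cleanly told from those of the near-identical HSPA1A.

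The largest falls included genes that A549 expresses strongly. CPLX2, a complexin that regulates vesicle fusion, fell from 1207 to 205 CPM in control cells and from 624 to 188 in MYC cells (log2 change -2.15 ± 0.20, adjusted p = 0.0037). The fibrinogen chains, liver-type secreted proteins that A549 makes, fell together. FGA went from 86.0 to 19.6 CPM in control cells and from 475 to 126 in MYC cells. FGB went from 101 to 21.4 CPM and from 454 to 101, and FGG from 55.9 to 17.8 and from 638 to 153. The fitted changes were -2.02 ± 0.17, -2.20 ± 0.22 and -1.87 ± 0.20. In DESeq2, CPLX2 (-2.12, adjusted p = 0.80), FGB (-2.18, adjusted p = 0.63) and FGG (-1.83, adjusted p = 0.33) had like fold changes but did not pass. MYC cells had more fibrinogen RNA than control cells in either treatment, and both kinds of cell lowered it with tipifarnib. Of 20 tested members of the liver-type list, 4 fell, the fourth being ceruloplasmin, CP (-1.05 ± 0.27), which did not pass in DESeq2 (adjusted p = 0.10). The control pair alone gave 2 falls in the list, and the MYC pair alone 4 falls and 1 rise.

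NTRK3, a neurotrophin receptor kinase, fell from 46.3 to 12.7 CPM and from 3.03 to 0.276 (-2.27 ± 0.37). AXIN2, a negative regulator and target of WNT signalling, fell from 10.0 to 2.31 CPM and from 2.69 to 1.06 (-1.78 ± 0.35). The imprinted noncoding RNA H19 fell from 33.2 to 5.95 CPM in control cells but only from 1374 to 806 in MYC cells. Its changes were -2.48 and -0.77 in the pairs. The intermediate filament gene NES fell by a like amount in both, -1.47 and -1.65. DLEU2 (-1.92 ± 0.29), RHBDL3 (-1.80 ± 0.31), PALM3 (-1.71 ± 0.37), SCG2 (-1.62 ± 0.42), PDGFRL (-1.59 ± 0.32), HTRA3 (-1.54 ± 0.31) and the sphingosine phosphate receptor S1PR5 (-1.49 ± 0.33) complete the group. In DESeq2 NTRK3 (adjusted p = 0.75), H19 (0.11) and SCG2 (0.059) did not pass. None of these 15 falls differed in sign between the pairs, which the naming rule required.

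**Figure D1:**
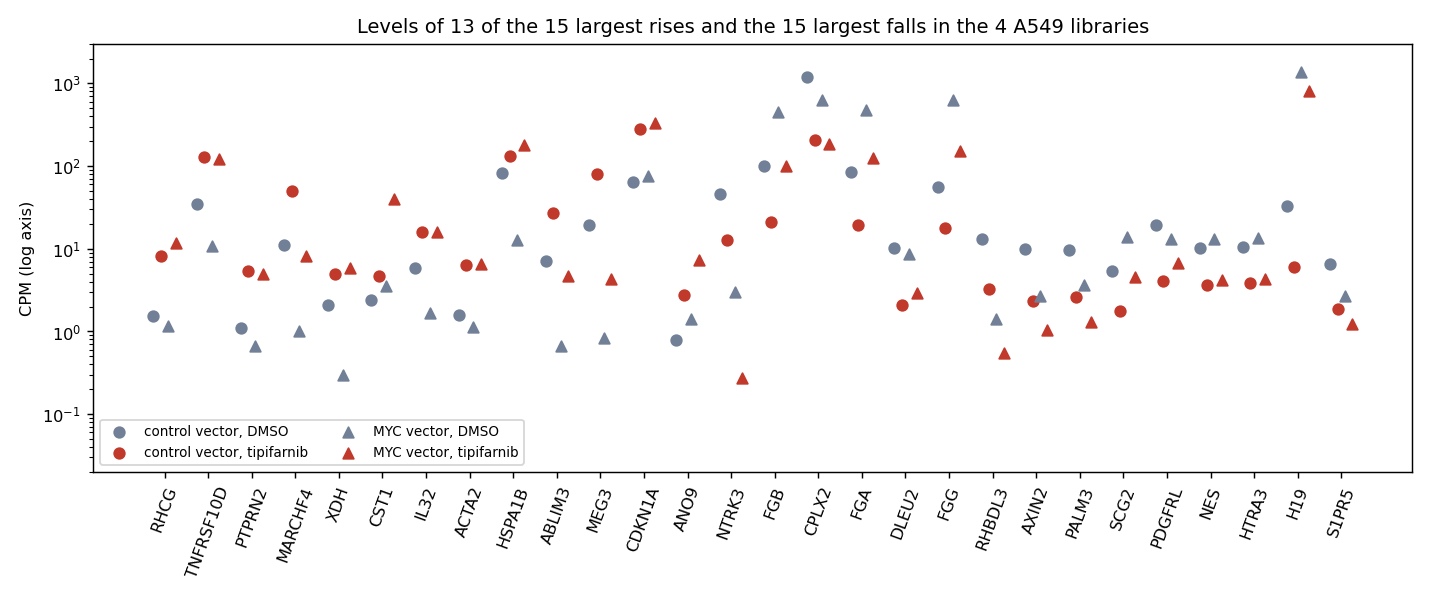
Levels in CPM (log axis) in A549 of 13 of the 15 largest rises and of the 15 largest falls, with 1 point per library, circles for control cells, triangles for MYC cells, grey for DMSO and red for tipifarnib. CDKN1A goes from 64.3 to 278 and from 75.7 to 331 CPM, and CPLX2 from 1207 to 205 and from 624 to 188.

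Genes of mitosis fell as a group. Of 50 on the list, 45 fell and 0 rose, beside 4.21% lower over all genes, with a median change of -0.72 against 0.00 for all genes. The median was -0.86 in the control pair and -0.60 in the MYC pair. PLK1, the kinase that drives mitotic entry, was at 207 and 218 CPM in DMSO and at 92.4 and 107 CPM in tipifarnib (-1.10 ± 0.12, adjusted p = 0.0037). TOP2A, the topoisomerase that untangles chromosomes, went from 1044 to 546 CPM and from 808 to 453 (-0.89 ± 0.13). Both tipifarnib libraries lay below both DMSO libraries for each gene. MAD2L1 (-0.88 ± 0.12) of the spindle checkpoint, cyclin A2 (CCNA2, -0.89 ± 0.13) and Aurora kinase A (AURKA, -0.88 ± 0.13) fell alike. From the control pair alone 20 of these genes passed, and from the MYC pair alone 8.

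The start regions of PLK1 and TOP2A are shown because they hold the elements through which MuvB complexes and NF-Y are known to act on mitotic genes. Capitals mark TTTGAA (the CHR element) and CCAAT on either strand, in stretches of 100 bases taken from the 250 bases upstream of the start site, from RefSeq on GRCh38.p14. The TTTGAA nearest the start site begins at -29 in PLK1 and at -151 in TOP2A, whose stretch therefore lies farther upstream. The PLK1 stretch is chr16:23678789-23678888 on the plus strand and that of TOP2A is chr17:40417995-40418094 on the minus strand.
PLK1: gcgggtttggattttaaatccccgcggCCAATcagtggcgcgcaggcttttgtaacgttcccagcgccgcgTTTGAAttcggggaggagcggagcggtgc
TOP2A: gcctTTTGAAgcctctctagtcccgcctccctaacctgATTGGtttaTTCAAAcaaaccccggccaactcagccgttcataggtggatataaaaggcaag
TTTGAA was found within 250 bases upstream of a start site in 24 of 43 mitosis genes with a RefSeq entry. That is 55.8%, against 16.1% of all 27305 genes. CCAAT was found in 34 of the 43, 79.1%, against 37.0%. In these and the later motif shares, a gene counted where the letters matched at any start site listed for it. These are matches of letters and no test was made. The letters of the 4 motifs reported here were chosen after 11 sets of letters had been counted and their shares seen.

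DNA replication genes fell too. Of 48, 40 fell and 0 rose, with a median of -0.83. MCM2, a subunit of the replicative helicase, went from 177 to 69.3 CPM in control cells and from 182 to 97.6 in MYC cells (-1.12 ± 0.13, adjusted p = 0.0041). RRM2, the regulated subunit of ribonucleotide reductase, went from 246 to 105 CPM and from 242 to 121 (-1.12 ± 0.14). The clamp loader subunit RFC3 (-1.01 ± 0.11), the checkpoint mediator CLSPN (-1.19 ± 0.15) and GINS1 (-0.92 ± 0.12) also fell. Of 25 DNA repair genes 19 fell and 0 rose, led by the exonuclease EXO1 (53.4 to 21.01 and 105 to 45.6 CPM, -1.27 ± 0.11) and the recombination gene XRCC2 (-1.04 ± 0.14). From the MYC pair alone 20 replication and 9 repair genes passed, and from the control pair alone 30 and 6.

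Among 25 genes of the G1 cyclins, E2F and RB, 7 fell and 0 rose. These were the transcription factors E2F8 (-1.30 ± 0.19), E2F2 (-1.16 ± 0.18) and E2F1 (-0.80), the RB relative RBL1 (-0.83 ± 0.12), CDK2 (-0.75 ± 0.14), CDC25A (-0.82) and CDKN2C (-1.17 ± 0.14). CDKN2C encodes an inhibitor of the G1 kinases, so its fall was opposite in direction to the rise of CDKN1A. It went from 60.0 to 25.3 CPM in control cells and from 54.4 to 25.6 in MYC cells. Of the list, 6 fell from the control pair alone and 2 from the MYC pair alone.

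The start regions of RFC3 and GINS2, which fell by -1.01 and -1.17, are shown for their E2F motif. Capitals mark TTTCCCGC or TTTGGCGC on either strand, from -55 in RFC3 and -31 in GINS2 relative to the start site, within 100 bases of GRCh38.p14 from RefSeq, at chr13:33818048-33818147 on the plus strand and chr16:85688955-85689054 on the minus strand.
RFC3: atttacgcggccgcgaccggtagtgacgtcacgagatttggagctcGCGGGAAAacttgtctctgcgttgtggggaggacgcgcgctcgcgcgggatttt
GINS2: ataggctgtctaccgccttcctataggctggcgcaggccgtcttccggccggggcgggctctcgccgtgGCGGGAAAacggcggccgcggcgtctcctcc
Of 42 replication genes with an entry, 15 held such a match, 35.7%, against 2.4% of all genes. Among the mitosis genes the share was 3 of 43, 7.0%, and TTTGAA was in 2 of the 42 replication genes, 4.8%.

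Some growth genes fell. Of 26 genes of nucleotide and polyamine synthesis 10 fell and 0 rose. The purine synthesis enzyme GMPS went from 192 to 108 CPM and from 231 to 141 (-0.77 ± 0.12), and PFAS (-0.71 ± 0.12) and PAICS (-0.66 ± 0.11) of the same pathway fell too. Ribosome biogenesis had 12 of 43 lower and 0 higher, with a median of -0.40, among them NOC2L (-0.72 ± 0.11), RRP12 (-0.72 ± 0.12) and PES1 (-0.69 ± 0.12). All but 3 of the 43 were lower in both pairs, beside 32.1% of all genes. From the control pair alone 2 nucleotide and 0 ribosome biogenesis genes passed as lower, and from the MYC pair alone 3 and 2. Of 36 oxidative phosphorylation genes 1 fell (ATP5MC1, -0.53 ± 0.12) and of 30 proteasome genes 4 fell, with PSMD12 first (-0.59 ± 0.11). Over all genes 4.21% fell. None of 13 genes of the mitochondrial genome passed. Of the proteasome list, 1 fell from the MYC pair alone and 0 from the control pair alone.

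Targets of p53 rose as a group: 18 of 34 rose and 0 fell, beside 3.32% higher over all genes, with a median of 0.75 (0.88 in control cells, 0.65 in MYC cells). MDM2 went from 77.4 to 153 CPM in control cells and from 96.8 to 180 in MYC cells (0.94 ± 0.11, adjusted p = 0.0043). BTG2, an inhibitor of proliferation, went from 9.47 to 33.2 CPM and from 13.4 to 52.7 (1.89 ± 0.20). TP53INP1, a p53 cofactor, went from 12.1 to 37.3 and from 4.80 to 18.5 (1.77 ± 0.18), and the RNA-binding ZMAT3 from 18.2 to 44.3 and from 16.3 to 60.2 (1.59 ± 0.16). In each of these genes both tipifarnib libraries were above both DMSO libraries. The others that rose include the death genes BBC3 (1.65) and BAX (0.75), the death receptor TNFRSF10B (0.84), SESN1 (1.61) and the repair genes XPC (0.58) and DDB2 (0.62). Of the targets, 12 passed from the MYC pair alone and 13 from the control pair alone.

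Lysosomal genes had 9 of 42 higher and 0 lower, with a median of 0.36. SQSTM1, an autophagy receptor, went from 433 to 736 CPM and from 444 to 770 (0.78 ± 0.13, adjusted p = 0.011). The acid ceramidase ASAH1 (0.60 ± 0.10), the protease TPP1 (0.64 ± 0.12), the autophagy gene WIPI1 (1.53 ± 0.28) and the cholesterol exporter of lysosomes, NPC1 (0.59 ± 0.11), rose too. In the control and MYC pairs SQSTM1 changed by 0.77 and 0.79, and WIPI1 by 1.25 and 1.82. Of the list, 3 passed from the MYC pair alone and 2 from the control pair alone.

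Inflammatory genes under NF-kB had 10 of 34 higher and 2 lower, with a fitted median of 0.76. The median was lower in each pair, 0.48 in control cells and 0.53 in MYC cells. Of the 36 genes listed, 7 stayed under 1 CPM in every A549 library. IRAK2, a kinase of interleukin-1 signalling, went from 8.85 to 37.8 CPM and from 5.77 to 22.1 (2.02 ± 0.21, adjusted p = 0.0033). NFKB2, a subunit of the factor, went from 58.6 to 109 and from 90.2 to 169 (0.90 ± 0.11). The chemokine CXCL8 rose from 1.59 to 6.22 and from 2.02 to 7.21 CPM (1.90 ± 0.30), and the inhibitor of apoptosis BIRC3 from 34.3 to 59.5 and from 52.8 to 101 (0.86 ± 0.15). PTGS2, the inducible cyclooxygenase, went the other way, from 40.2 to 24.2 and from 199 to 61.4 CPM (-1.23). The fitted rise of SAA1 is the highest point on the list, but it rests on 4.78 CPM in 1 library against at most 0.136 CPM in the other A549 libraries. From the MYC pair alone 11 rose and 1 fell, and from the control pair alone 4 rose.

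Interferon response genes had 8 of 40 higher and 0 lower, and their median was 0.21 in control cells and 0.78 in MYC cells. The peptide transporter TAP1 went from 24.98 to 40.8 CPM and from 22.2 to 46.8 (0.89 ± 0.15). PSMB8, a subunit of the immunoproteasome, went from 15.2 to 24.2 and from 6.95 to 25.3 (1.24 ± 0.23), and the RNA sensor IFIH1 from 1.81 to 4.18 and from 2.32 to 5.05 (1.16 ± 0.23). IFIT2 (1.45 ± 0.25) and SAMD9L (1.20 ± 0.24) stayed under 10 CPM. From the control pair alone 1 of the list passed, and from the MYC pair alone 6.

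Of 15 enzymes of prenylation and CAAX processing, 1 passed, CHML, an escort protein for the prenylation of RAB proteins (-0.63 ± 0.12). Over all genes 7.54% passed. FNTA, the shared alpha subunit of farnesyltransferase, was at 34.3 and 27.6 CPM in DMSO and 42.3 and 38.1 in tipifarnib (0.38 ± 0.13, adjusted p = 0.099). FNTB, the beta subunit, was at 14.9 and 12.8 CPM in DMSO and 10.4 and 9.65 in tipifarnib (-0.46 ± 0.19, adjusted p = 0.17). From the MYC pair alone 1 enzyme of the list rose and 1 fell, and from the control pair alone 0 did. Both pairs had FNTA higher and FNTB lower, but neither passed. HRAS, a farnesylated GTPase, was at 59.9, 58.6, 60.1 and 60.2 CPM in the control DMSO, control tipifarnib, MYC DMSO and MYC tipifarnib libraries.

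Of 31 genes for farnesylated or otherwise prenylated proteins, 2 rose and 3 fell, with a median of -0.01. RHOB, a GTPase that carries either lipid, rose from 71.6 to 238 CPM in control cells and from 108 to 224 in MYC cells (1.39 ± 0.15, adjusted p = 0.0037). PTP4A3, a prenylated phosphatase, rose by 0.82 ± 0.20. The 3 that fell were lamin B1 (LMNB1, 182 to 104 and 161 to 101 CPM, -0.74 ± 0.12), CENPF (-0.74 ± 0.16) and CENPE (-0.62 ± 0.15). CENPE and CENPF are also on the mitosis list. Of the 31, 2 rose and 1 fell from the control pair alone, and 2 rose from the MYC pair alone. Among 39 small GTPases, RASD2 (1.34 ± 0.31) and MRAS (0.72 ± 0.17) rose with RHOB, and 0 fell, beside 3.32% higher over all genes. Either pair alone gave 1 rise and 0 falls there.

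Of 27 feedback and output genes of RAS-ERK signalling, beside 3.32% higher over all genes, 2 rose and 0 fell. These were the MAP kinase phosphatases DUSP5 (18.9 to 69.3 and 55.7 to 163 CPM, 1.70 ± 0.16, adjusted p = 0.0033) and DUSP1 (94.8 to 323 and 101 to 215 CPM, 1.43 ± 0.20). The control pair alone gave 3 rises in the list and the MYC pair alone 2. Immediate early and KLF genes had 7 of 33 higher and 1 lower. JUN went from 37.8 to 142 and from 14.4 to 35.8 CPM (1.62 ± 0.20), KLF2 from 7.71 to 35.9 and from 15.6 to 33.0 (1.63 ± 0.27) and KLF6 from 65.2 to 152 and from 75.9 to 127 (0.98 ± 0.15). The change was larger in the control pair for each of the 3, by differences that did not pass. The nuclear receptor NR4A1 fell (-0.79 ± 0.18). From the control pair alone 6 immediate early genes rose, and from the MYC pair alone 2 rose and 3 fell.

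Of 25 targets of YAP and SRF, 7 rose and 0 fell, with a median of 0.42. The tropomyosin TPM1 went from 422 to 808 CPM and from 82.6 to 150 (0.90 ± 0.12, adjusted p = 0.0061), and TAGLN, an actin-binding protein, from 8.19 to 41.0 and from 2.19 to 6.02 (1.96 ± 0.27). Among 33 mesenchymal and matrix genes 6 rose and 1 fell. In both pairs 15 were higher and 9 lower, beside 31.4% and 32.1% of all genes. PLAU, a plasminogen activator, went from 77.4 to 221 CPM and from 17.97 to 99.8 (1.97 ± 0.37), and TIMP2, an inhibitor of matrix proteases, from 211 to 334 and from 52.7 to 184 (1.23 ± 0.23). Fibronectin, FN1, fell instead, from 615 to 325 and from 39.1 to 16.1 CPM (-1.09 ± 0.14). MYC cells held less of all 5 of these RNAs than control cells in either treatment. From the MYC pair alone 3 YAP and SRF targets and 5 matrix genes rose, and from the control pair alone 4 and 1.

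Of 34 keratin and epithelial junction genes 5 rose and 0 fell, with a median of 0.23 in control cells and 0.81 in MYC cells. Among them were CLDN4 (1.20 ± 0.23), the integrin ITGB4 (1.60 ± 0.39), KRT19 (1.43 ± 0.37) and KRT34 (2.33 ± 0.57), which reached only 1.68 CPM. ITGB4 went from 134 to 245 CPM in control cells and from 43.7 to 222 in MYC cells, so the MYC DMSO library was the low one. In DESeq2 ITGB4 (adjusted p = 0.056) and KRT19 (0.10) did not pass. From the MYC pair alone 9 of the list rose, and from the control pair alone 0.

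Targets of NRF2, the factor that KEAP1 holds back and that A549 is known to keep active, had 9 of 35 lower and 1 higher, with a median of -0.34. AKR1C2, an aldo-keto reductase, went from 2821 to 1167 CPM in control cells and from 2149 to 1243 in MYC cells (-1.03 ± 0.17, adjusted p = 0.011). GPX2, a glutathione peroxidase, went from 310 to 107 and from 344 to 202 (-1.15 ± 0.18). GCLC, the catalytic subunit for glutathione synthesis, went from 273 to 144 and from 242 to 146 (-0.82 ± 0.13), and OSGIN1 from 62.3 to 34.6 and from 170 to 51.1 (-1.30 ± 0.20). Both tipifarnib libraries were below both DMSO libraries in all 4 genes. The exporter ABCC3 rose (0.75 ± 0.15). From the control pair alone 4 fell, and from the MYC pair alone 3 fell and 3 rose.

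In glycolysis and hypoxia 5 of 33 genes fell and 1 rose. The isomerase GPI went from 859 to 479 CPM and from 1095 to 651 (-0.80 ± 0.11), and the aldolase ALDOA from 1266 to 834 and from 1477 to 1114 (-0.51 ± 0.12). ENO2 rose (0.84 ± 0.21). HK2 was called lower (-0.91 ± 0.23), but only MYC cells expressed it, at 108 CPM in DMSO and 45.7 in tipifarnib against 1.54 and 1.68 in control cells. Without the MYC pair its change was 0.15 (adjusted p = 0.90), and it did not pass in DESeq2 (adjusted p = 0.063). Of the glycolysis and hypoxia genes, 3 fell and 1 rose from the control pair alone, and 2 fell and 1 rose from the MYC pair alone. In iron handling the transferrin receptor TFRC (-0.67 ± 0.12) and ferritin light chain FTL (-0.63 ± 0.12) were among 4 of 16 genes that fell. None of the 16 passed from the control pair alone, and 1 fell and 2 rose from the MYC pair alone. The receptor kinases FGFR4 (51.1 to 18.2 and 52.2 to 23.2 CPM, -1.33 ± 0.16) and FGFR2 (-2.01 ± 0.35) fell, while EGFR rose from 213 to 294 and from 85.2 to 163 CPM (0.70 ± 0.15). They belong to 29 receptor kinases and ligands, of which 4 rose and 2 fell. The control pair alone gave 1 fall and 0 rises there, and the MYC pair alone 2 falls and 3 rises.

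**Figure D2:**
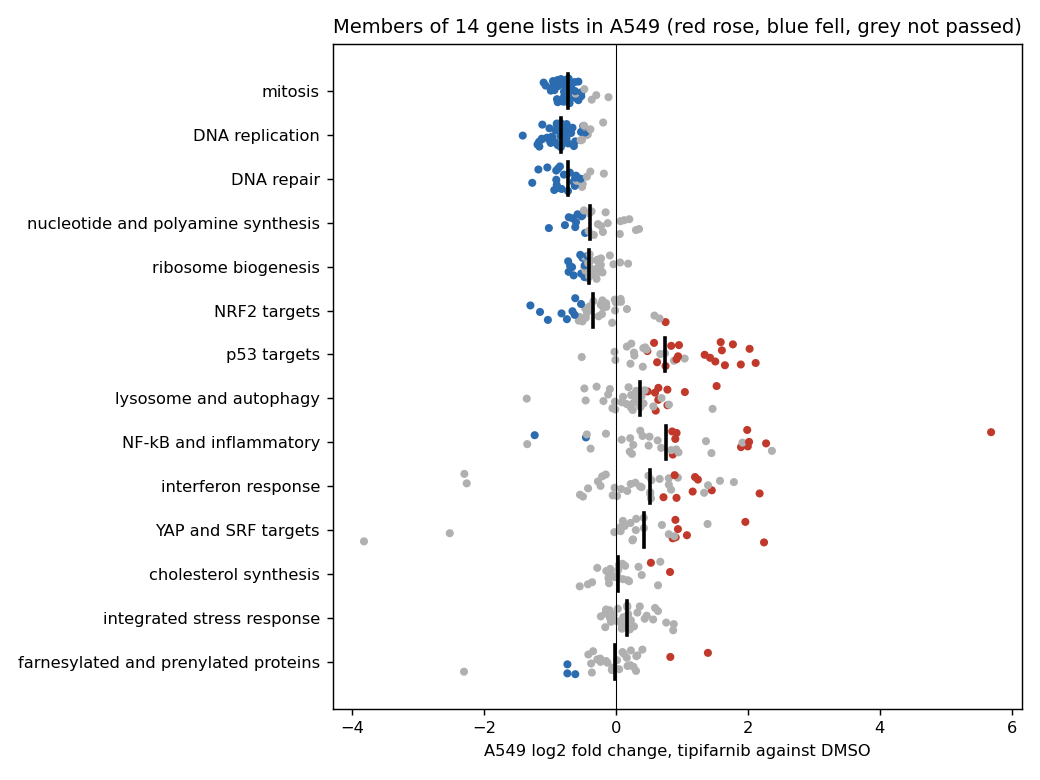
Fitted log2 change with tipifarnib in A549 for the tested members of 14 gene lists, with 1 point per gene (red rose, blue fell, grey did not pass) and a black bar at each list's median. Mitosis (-0.72) and DNA replication (-0.83) lie to the left, p53 targets (0.75) to the right, and the integrated stress response (0.17) has no member that passed.

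The integrated stress response is the programme in which phosphorylation of the initiation factor eIF2 lets ATF4 be translated, which raises genes for amino acid supply and the factor DDIT3. None of its 33 tested genes passed over both pairs in edgeR, and 30 of them were higher in the control pair and lower in the MYC pair. The median change was 0.91 in control cells and -0.57 in MYC cells. From the control pair alone 16 rose and 0 fell, and from the MYC pair alone 8 fell and 0 rose. DDIT3 was at 3.79 CPM in control cells in DMSO and 13.9 in tipifarnib, against 21.4 and 7.76 in MYC cells. SESN2 was at 9.30 and 48.3 CPM against 64.3 and 26.5, and ASNS, asparagine synthetase, at 113 and 265 against 476 and 272. In all 3 genes the MYC DMSO library was the highest and the control DMSO library the lowest, with the tipifarnib libraries between them.

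**Figure D3:**
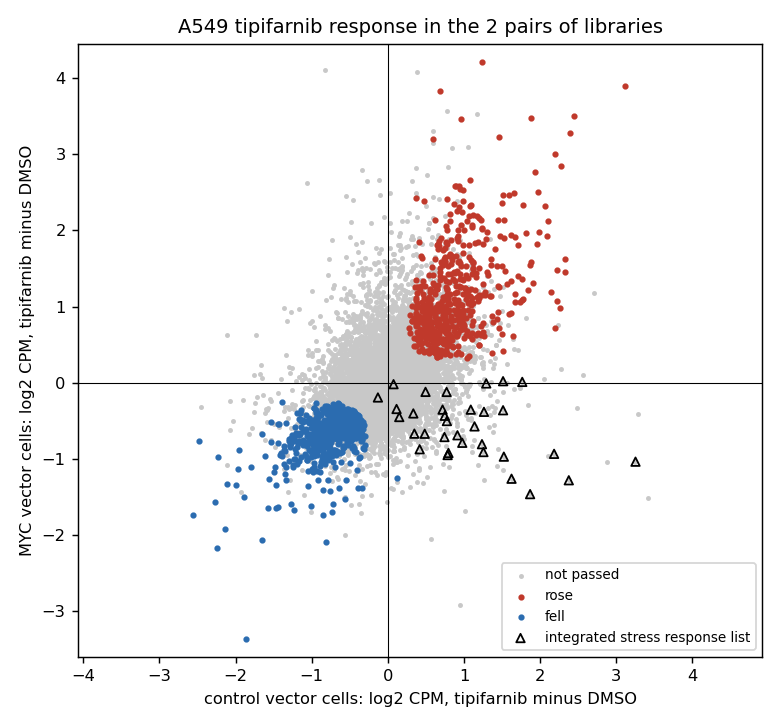
Log2 CPM in tipifarnib minus DMSO for control cells (x axis) and MYC cells (y axis), with 1 point per gene of mean log2 CPM of at least 1 in A549, red where the gene rose, blue where it fell and open triangles for the integrated stress response. Across these 12262 genes r was 0.51, and 30 of 33 triangles lie at the lower right.

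The difference between the responses of MYC and control cells was tested with a separate term, whose spread comes from the other lines alone. It passed for 28 genes, 0.156% of those tested, of which 18 (0.100%) were lower in MYC cells. Among 17913 genes 7.5% had an unadjusted p under 0.05, and among the 33 stress response genes 29 had. Of these 33, 7 passed as lower: SESN2 (-3.66 ± 0.49, adjusted p = 0.025), DDIT3 (-3.34 ± 0.41), STC2 (-3.12 ± 0.39), TRIB3 (-2.88 ± 0.36), ASNS (-2.04 ± 0.26), CEBPG (-1.76 ± 0.21) and GPT2 (-1.72 ± 0.25). ADM2 (-3.71 ± 0.45) and ARRDC4 (-3.95 ± 0.59), which are not on the list, also passed as lower. ARRDC4 was at 0.617 CPM in control cells in DMSO and 4.67 in tipifarnib, against 26.6 and 13.0 in MYC cells. The numbers of genes that passed here are unstable, with 99 in DESeq2 and 8 in limma-voom.

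Differences in the other direction were led by the HSP70 genes. HSPA1A was at 110 and 145 CPM in control cells and at 10.4 and 176 in MYC cells (3.70 ± 0.25, adjusted p = 0.0010), and HSPA1B at 83.3 and 134 against 12.7 and 181 (3.15 ± 0.23). HSPA8 differed by 2.05, with the values given above. In all 3 the MYC DMSO library alone was low. EMP1, a membrane glycoprotein, was at 42.8 and 29.2 CPM in control cells and at 13.1 and 71.9 in MYC cells (3.00 ± 0.26). ELFN2 (2.87 ± 0.32), TSPAN1 (2.63 ± 0.34) and GDA (2.46 ± 0.25), a guanine deaminase, followed. GDA differs in form, since its 13.0, 13.3 and 12.3 CPM in the first 3 libraries leave only the MYC tipifarnib library, at 69.0, apart.

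**Figure D4:**
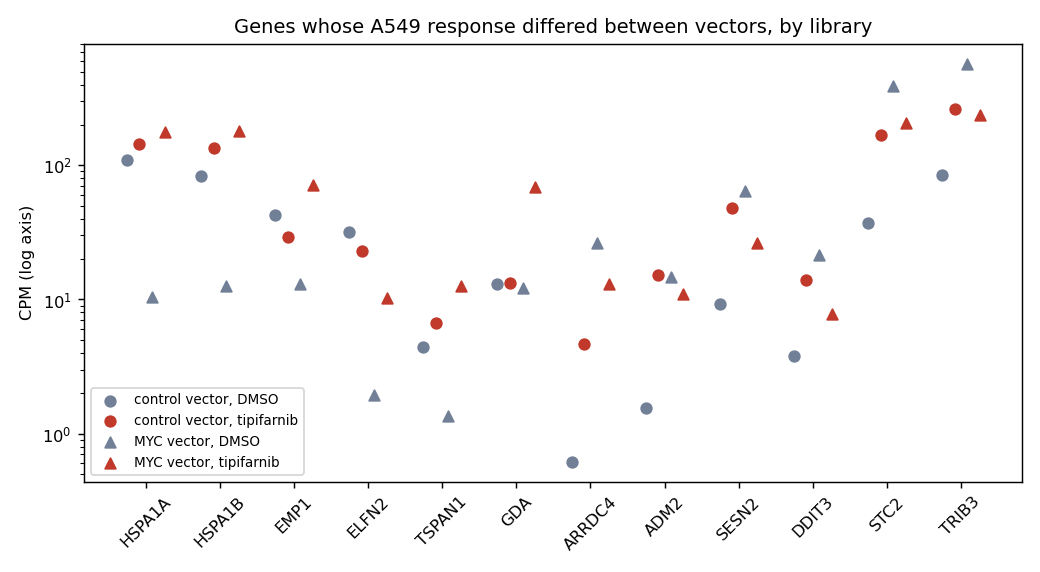
Levels in CPM (log axis) in the 4 A549 libraries of the 12 named genes whose response differed between vectors, with circles for control cells, triangles for MYC cells, grey for DMSO and red for tipifarnib. The MYC DMSO library is lowest for HSPA1A (10.4) and highest for TRIB3 (570).

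The start regions of CEBPG and CHAC1 are shown for the core letters of the composite element of stress response genes. CEBPG encodes a partner of ATF4, and CHAC1, which degrades glutathione, went from 3.04 to 29.1 CPM in control cells and from 36.6 to 17.8 in MYC cells (difference -4.29 ± 0.69, adjusted p = 0.060). Capitals mark TGATGCAA on either strand, from -42 in CEBPG and -209 in CHAC1 relative to the start site, in GRCh38.p14 from RefSeq, at chr19:33374013-33374112 and chr15:40953221-40953320, both on the plus strand.
CEBPG: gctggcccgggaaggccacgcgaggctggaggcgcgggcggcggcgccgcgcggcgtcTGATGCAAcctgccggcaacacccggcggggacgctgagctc
CHAC1: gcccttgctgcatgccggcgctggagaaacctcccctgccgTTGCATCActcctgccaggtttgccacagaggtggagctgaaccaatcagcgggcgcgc
Such a match was found in 4 of 27 genes of the list with an entry, 14.8%, against 1.0% of all genes.

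The A549 response was compared with the mean of the SKOV3 and MDA-MB-231 responses. A549 received the lower dose, so line and dose cannot be told apart. The difference passed as higher in A549 for 102 genes, 0.569% of those tested, and as lower for 108, 0.603%. Without the vector term 0 genes passed (1055 had an unadjusted p under 0.05). Fits that left out an A549 pair kept both vectors of the other lines, so no difference within 1 vector was tested.

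Of 34 p53 targets, 7 had a higher response in A549 (MDM2, SESN1, ZMAT3, TP53INP1, DDB2, BTG2 and FDXR) and 1 a lower response (GDF15). The list's median change was 0.75 in A549, beside 0.15 (SKOV3) and 0.12 (MDA-MB-231). MDM2 was at 38.4 and 43.5 CPM in DMSO and 40.3 and 44.8 in tipifarnib in SKOV3, and at 63.1 and 60.9 against 42.9 and 48.1 in MDA-MB-231 (difference 1.14, adjusted p = 0.0072). BTG2 fell in SKOV3, from 5.89 to 1.48 and from 20.6 to 3.04 CPM, and its change in MDA-MB-231 did not pass (0.40 ± 0.22). Its difference from the mean of both lines was 2.91 ± 0.26 (adjusted p = 0.0033). CDKN1A rose in all 3 lines, by 2.12 (A549), 2.74 (SKOV3) and 1.51 (MDA-MB-231), and its difference did not pass (-0.01 ± 0.28). GDF15, a stress cytokine, rose in A549 too, by 1.43 ± 0.29, but by 3.28 and 4.14 in the other lines (difference -2.28 ± 0.37).

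NRF2 targets differed the other way, with 14 of 35 lower in A549 and 0 higher. Their median was -0.34 in A549, beside 0.36 (SKOV3) and 0.66 (MDA-MB-231). HMOX1, heme oxygenase, was at 105 and 64.7 CPM in A549 in DMSO and at 131 and 50.4 in tipifarnib, whereas in SKOV3 it went from 23.6 to 191 and from 33.4 to 365 (difference -3.42, adjusted p = 0.0013). FTL fell in A549, from 6355 to 4142 and from 8691 to 5598 CPM, and rose in the other lines (difference -1.76 ± 0.15, adjusted p = 0.0027). The levels of these genes in DMSO were not alike, since AKR1C2 stood at 2821 and 2149 CPM in A549, 97.0 and 112 in SKOV3 and at most 0.778 in MDA-MB-231. OSGIN1 (-2.65 ± 0.25), AKR1C2 (-2.42 ± 0.25), GCLC (-1.40 ± 0.16) and AKR1C3 (-1.28 ± 0.16) were also lower in the difference.

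Genes of cholesterol synthesis, which SREBP factors raise when sterol is short, had 9 of 25 lower in A549 and 0 higher. Their median was 0.03 in A549, beside 1.15 (SKOV3) and 0.54 (MDA-MB-231). The A549 pairs were opposite, with medians of -0.24 in control cells and 0.29 in MYC cells, and 17 of the 25 genes were lower in the control pair and higher in the MYC pair. From the MYC pair alone 4 rose, and from the control pair alone 1 fell. SQLE, squalene epoxidase, had a difference of -1.06, MVD of -1.37 and ACAT2 of -1.85. Only MSMO1 (0.82 ± 0.17) and STARD4 (0.53 ± 0.14) of the list rose in A549. ABCA1, an exporter of cholesterol, rose in A549 from 22.3 to 51.0 and from 2.95 to 6.57 CPM. It fell in MDA-MB-231 from 33.9 to 6.35 and from 15.2 to 4.34. Its change in SKOV3 did not pass (-0.15 ± 0.17). The difference from the mean of both lines was 2.32 ± 0.23 (adjusted p = 0.0037).

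**Figure D5:**
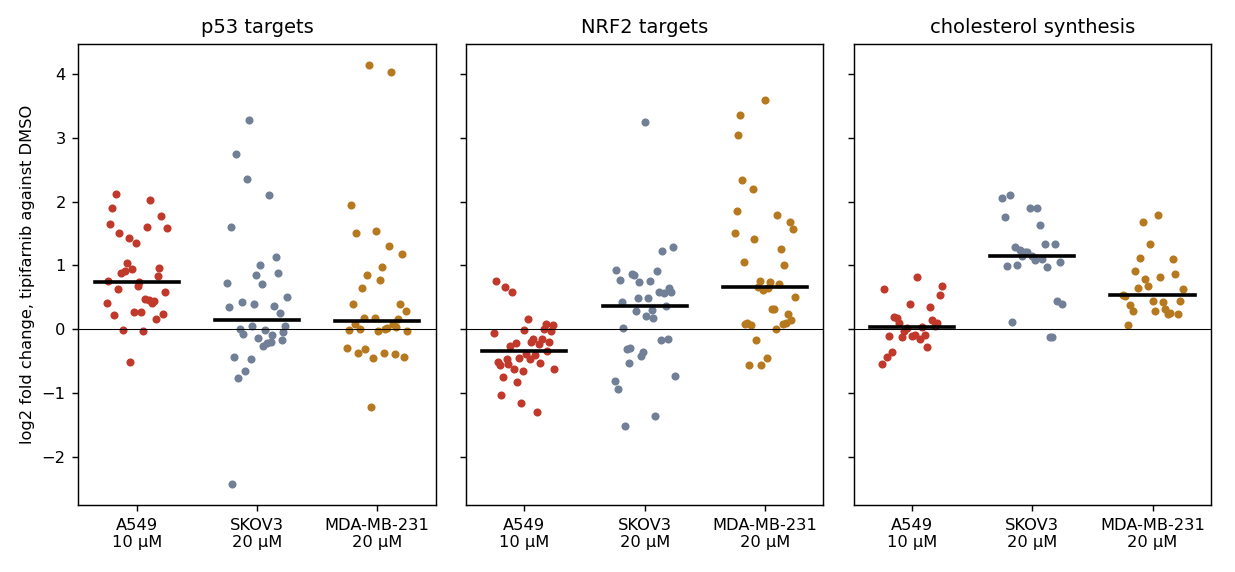
Fitted log2 change with tipifarnib in A549 (10 µM), SKOV3 and MDA-MB-231 (20 µM) for the tested members of 3 lists, with 1 point per gene and a black bar at the median. The p53 bar is at 0.75 in A549 and the NRF2 bar at -0.34, while the cholesterol bar is at 0.03 in A549 and 1.15 in SKOV3.

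The other genes named for a higher response in A549 were CDH4 (2.37 ± 0.34), a cadherin, PLAC8 (1.96 ± 0.28), the basement membrane collagen COL4A5 (1.91 ± 0.33), EDIL3 (1.86 ± 0.24), HES2 (1.79 ± 0.26) and ARHGEF4 (1.76 ± 0.26), an exchange factor for small GTPases. Some rest on low levels. In A549 control cells PLAC8 went from 0.485 to 0.998 CPM and EDIL3 from 0.485 to 0.817. CDH4 went from 0.337 to 1.06 CPM in A549 MYC cells. SKOV3 libraries held CDH4 at 0.0894 to 0.261 CPM and COL4A5 at 0.313 to 2.09. HES2 and ARHGEF4 were above 1 CPM in every library. The change of HES2 was -1.49 in SKOV3 but 0.58 in MDA-MB-231. HK2 (-1.56 ± 0.27) and NR4A1 (-1.34 ± 0.25) were named for a lower response in A549. HK2 changed by 1.55 in SKOV3 and by -0.27 in MDA-MB-231, and NR4A1 by -0.30 and 1.38. Without the A549 MYC pair, and with both vectors of the other lines kept, the difference of HK2 was -0.52. Of the mitosis and DNA replication lists, 0 of 50 and 1 of 48 genes passed for this difference. Their medians in SKOV3 and MDA-MB-231 were -0.95 and -0.71 for mitosis and -0.60 and -1.11 for replication. The gene that passed, RRM2, fell by less in A549 (-1.12) than in SKOV3 (-1.43) and MDA-MB-231 (-2.70).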

How the data were processed

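The deposited values are whole-number read counts, not normalized, made with TopHat2 on hg19 and HTSeq, with DESeq2 also listed, per the submitters' processing notes; versions are not given in the sources used here. Per the labels' protocols, libraries were made from total RNA with a SMARTER mRNA-Seq kit. HTSeq summary rows (18.5% to 19.9% of A549 counts) were left out.

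Genes passing filterByExpr were scaled by TMM and fitted with edgeR 4.0.16 (quasi-likelihood, Benjamini-Hochberg; R 4.3.3) over all 12 libraries, with terms for line and each line's vector and tipifarnib effects. This leaves 3 residual degrees of freedom and a biological coefficient of variation of 0.136; the spread is the interaction of vector and drug. Adding that interaction for A549 leaves 2. Per-pair changes are log2 CPM with a prior count of 0.5. Pairs are the libraries of 1 vector line, whose deviations correlated across genes (r = 0.555).

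The members and gene lists were chosen with earlier results of these data known. Named genes were MYC, FNTA and FNTB; the 15 largest rises and falls among genes that passed, with mean log2 CPM of at least 1 and the same direction in both pairs; up to 5 members of a list by smallest p; the 6 and 8 highest and lowest differences between vectors and lines. Other names were chosen after their values were seen, as were the motif letters. Unnamed identifiers were left out, and some genes the rule names are not reported here.

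Counts were simulated with 200 genes of mean A549 CPM above 1 changed by 2-fold or 4-fold, and with no other tipifarnib effect in any line. For A549, 68% of 2-fold and 89% of 4-fold changes were recovered, with 25.9% of calls false. Between vectors the values were 13% and 73%, with 20.4% false. Between lines they were 46% and 88%, with 6.94% false. The false shares exceed the nominal rate. In the data 1350 genes passed for A549, so the simulated shares need not hold there. Alternatives were DESeq2 1.42.0, its size factors, limma-voom (limma 3.58.1), other filters, no vector term, A549 alone and each pair left out. Protein sequences were not used here.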

Additional observations from a re-analysis of the deposited data

Results flagged for a closer look

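The tipifarnib response differed between MYC and control cells of A549, by the interaction term, for these named genes (log2, MYC minus control): HSPA1A 3.70, HSPA1B 3.15, EMP1 3.00, ELFN2 2.87, TSPAN1 2.63, GDA 2.46, ARRDC4 -3.95, ADM2 -3.71, SESN2 -3.66, DDIT3 -3.34, STC2 -3.12 and TRIB3 -2.88. In each of them except ADM2 the MYC DMSO library was the highest or the lowest of the 4, and the part of that 1 library in the difference was not tested. For GDA it was lowest by little (12.3 CPM), and the MYC tipifarnib library (69.0 CPM) was the one apart.

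The response of A549 differed from the mean of the other lines for these named genes (log2): BTG2 2.91, CDH4 2.37, ABCA1 2.32, PLAC8 1.96, COL4A5 1.91, EDIL3 1.86, HES2 1.79, ARHGEF4 1.76, OSGIN1 -2.65, AKR1C2 -2.42, GDF15 -2.28, FTL -1.76, HK2 -1.56, GCLC -1.40, NR4A1 -1.34 and AKR1C3 -1.28. The mean can rest mainly on 1 of the other lines. Against SKOV3 alone 13 of these 16 differences still passed, and against MDA-MB-231 alone 13. In limma-voom 10 of the 16 passed. Dose and line cannot be told apart in any of the 16.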

How the results depend on the processing

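With 1350 genes passing for tipifarnib in A549, other settings gave 1812 (DESeq2), 1424 (limma-voom), 1236 (DESeq2 size factors), 1345 (mean CPM of at least 1), 2321 with no low count filter (1289 higher, 1032 lower) and 279 in the A549 libraries only. With no replicate block, that is without the pairing by vector, 0 passed there and 0 for A549 against the other lines. Leaving out a pair gave 372 to 654. DESeq2 kept 1316 of the 1350 calls, limma-voom 1208 and the A549 libraries alone 268. Among the 154 named or listed genes that passed, DESeq2 and limma-voom each kept 142. The A549 libraries alone kept 73 of the 152 tested there. Of 154 named or listed genes that passed, 89 still passed in the same direction without the control pair and 69 without the MYC pair. HK2 changed by 0.15 without the MYC pair and by -1.24 without the control pair. The 28 differences between vectors became 99 (DESeq2), 8 (limma-voom) and 335 (no low count filter). The 210 differences between lines became 569 (DESeq2), 97 (limma-voom), 1098 (no low count filter), 121 (mean CPM of at least 1), 589 against SKOV3 alone and 82 to 609 with a pair left out. The cause of these shifts was not tested. A lone pair is assumed to vary like the other lines, and with 1 library per vector and treatment no culture-to-culture error was measured.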
